A study of Danio rerio with 12 samples.

Results

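The genes described here encode the proteasome, the particle that degrades proteins in the cytosol and nucleus, and the enzymes that attach ubiquitin to its substrates. Members were taken by name, as genes whose current zebrafish symbol begins with psma, psmb, psmc, psmd, psme, uba followed by a digit, or ube2. This set of names was itself chosen with earlier results of these data known. They comprised 78 of the 6684 genes analysed, or 132 of 12275 probes. The livers came from wild-type zebrafish of the AB line, of both sexes, fed for 28 days on a diet with 0% maize or on a diet in which maize replaced wheat up to 25%. Both diets were supplemented with Artemia nauplii. The groups differed in sex and in the feed, in which maize took the place of wheat. By the paper's measurements the 25% maize feed also held less carbohydrate and more protein and lipid than the 0% feed. The diet effects below are those of the whole change of feed. Each of the 4 groups (female 0% maize, female 25% maize, male 0% maize and male 25% maize) held 3 pools of livers, each pool being the fish of 1 sex from 1 tank, and males and females of 1 diet with the same replicate number shared a tank. These are the pools that the labels give for the arrays. The methods give 4 biological replicates per diet, for the arrays as for the feeding trial, and the labels differ from that. Each of the 12 pools was hybridised on 2 of the 12 two-colour arrays, once in each dye. The study asked how maize in the feed changes liver expression in each sex.

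Ubiquitin is activated by an E1 enzyme, passed to an E2 conjugating enzyme and attached to a target with the help of an E3 ligase. Chains of ubiquitin bring the target to the 19S cap of the proteasome, where a ring of ATPases unfolds it and feeds it into the 20S core. The core is a barrel of alpha rings, which form the gate, around beta rings, which hold the proteolytic sites. In immune cells and in cells that have met interferon, the catalytic beta subunits can be replaced by immune subunits, and the 11S cap formed by the products of psme1 and psme2 can take the place of the 19S cap. In fish that lay yolky eggs the female liver also makes vitellogenin in large amounts.

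The measured members were 10 genes of the 20S alpha ring, 7 of the constitutive beta ring, 3 immune or related beta genes (psmb9a, psmb10 and psmb12), 7 ATPases of the 19S base, 14 genes named psmd, 4 named psme, and 33 E1 and E2 genes, of which 2 (uba1 and uba2) are E1 genes. Of the psmd genes, psmd9 and psmd10 encode assembly chaperones of the cap and not subunits. Of the psme genes, psme3ip1 encodes a protein that binds the psme3 product. Of the E2 genes 28 act with ubiquitin, ube2ia acts with SUMO, ube2f acts with NEDD8, and ube2v2 encodes a variant without a catalytic cysteine. There were 40 members with 1 probe and 38 with more, and a gene was given the mean of its probes.

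Levels below are log2 values relative to the mean of the 12 pools, so they compare pools within a gene and not genes with each other. Changes are log2 differences from the limma fit over all 6684 genes, and a change passed the test where the Benjamini-Hochberg adjusted p over all genes was under 0.05. The fit weighs arrays that share a pool, so a change can differ from the difference of the pool means. The sexes differed in tissue markers as well as in the members. Over all genes 38.3% were higher and 32% were lower in females. All 15 measured exocrine pancreas genes were lower in females, 16 of 17 ovary and oocyte genes were higher, and all 8 vitellogenin and oestrogen-responsive genes were higher. Of the 15 secreted hepatocyte proteins, 13 were lower in females, as were all 7 erythrocyte genes, 10 of 13 intestinal genes and 1 of 11 leukocyte genes. All 11 leukocyte genes had a negative sex difference, from -1.04 to -0.05 with a median of -0.35. Only 1 passed the test, b2m, which is not confined to leukocytes. The mean of the ovary genes lay between 1.04 and 2.27 in the 6 female pools and between -1.94 and -1.06 in the 6 male pools. Whether a tissue of origin differed in amount or in RNA content cannot be told apart in pooled livers, and the part of these tissues in the sex differences below was not tested.

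**Figure D1:**
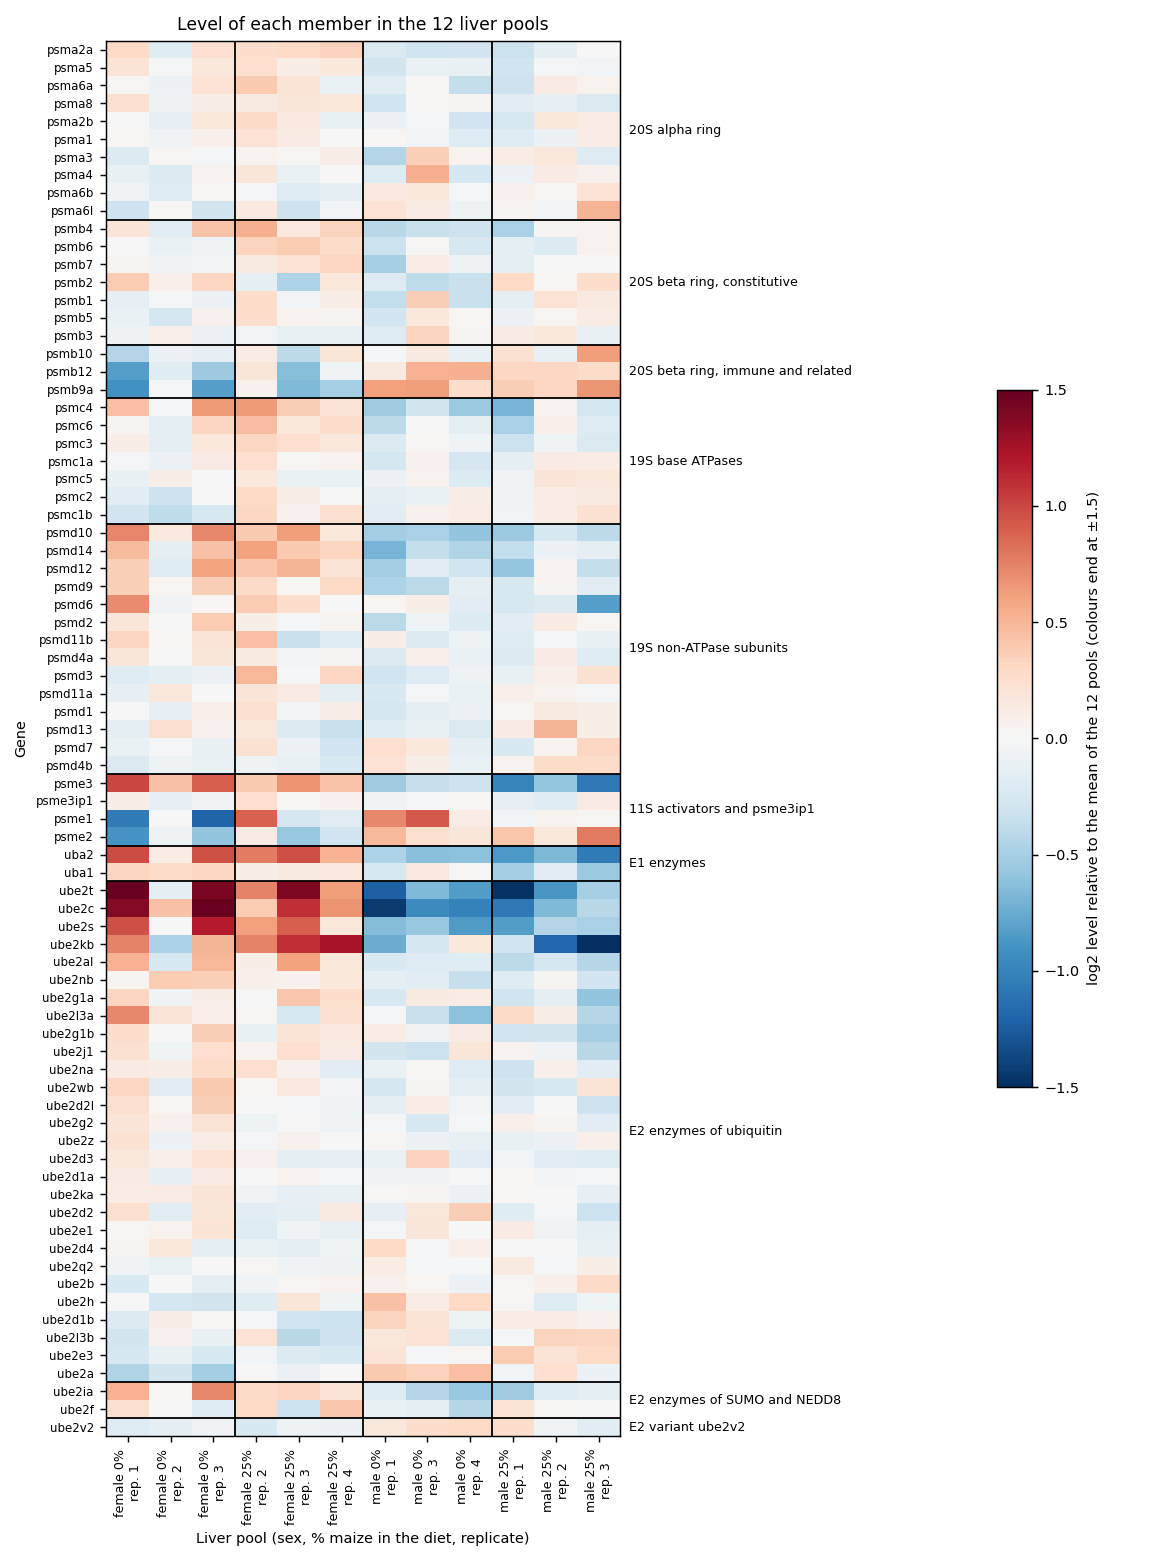
Level of each of the 78 members (rows, grouped by part of the system and ordered by sex difference) in the 12 liver pools (columns), as log2 relative to the mean of the 12 pools, with the colours ending at 1.5 in either direction. The strongest contrasts lie between the 6 female and the 6 male columns, in ube2t, ube2c, ube2s, uba2 and psme3 (red in females) and in psmb9a, psmb12 and psme2 (blue in most females).

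Many more members differed by sex than by diet. In females 28 members were higher and 10 were lower than in males, which is 48.7% of the 78 against 70.3% of all genes tested. Over all genes 38.3% were higher and 32% were lower in females. Every female pool lay above every male pool in 7 of the 78 members, against 22.2% of all genes. Every female pool lay below every male pool in 3 of the 78, against 16.4%. The median sex difference was 0.13 for the members and 0.05 for all genes, and the median size, ignoring sign, was 0.23 for the members and 0.41 for all genes. Of the 38 calls, 27 held in each of the 12 fits that left out 1 pool. The other 11 were those of psma6a, psma6b, psma8, psmc6, psmd2, psmd6, psme1, ube2d1b, ube2g1a, ube2g1b and ube2na, which were lost with at least 1 pool left out at adjusted p up to 0.2 (limma), and each of the 12 pools was among those concerned. Each such fit also lacked the 2 arrays that carried the pool, so a lost call need not mean dependence on that pool. Of the 27 calls, 24 also held in each of 11 other settings of the fit. Those of psma5, uba1 and ube2a were lost without the dye term, at adjusted p of 0.051, 0.062 and 0.125 (limma).

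Among the 10 alpha ring genes 4 were higher and 1 was lower in females, which is 50% against 70.3% of all genes. In females psma2a was higher by 0.43 ± 0.09 (SE, limma, adjusted p = 0.00104), psma5 by 0.28 (adjusted p = 0.0052), psma6a by 0.25 (adjusted p = 0.041) and psma8 by 0.23 (adjusted p = 0.016), all from limma. The paralog of psma6a, psma6b, was lower by 0.18 (limma, adjusted p = 0.023), so that psma6a and psma6b went opposite ways. The calls of both psma6 genes were lost with some pools left out, at adjusted p up to 0.158 for psma6a and 0.073 for psma6b (limma). With the replicate number as a block they were also lost, at adjusted p of 0.097 and 0.068 (limma). The paralog psma2b had a difference of 0.15 (limma, adjusted p = 0.133), and the 5 alpha genes that did not pass lay between -0.23 and 0.15. The probes of psma5 gave 0.57 and -0.00, and those of psma8 ran from -0.02 to 0.61, so each call rested on 1 of the gene's probes. The difference between paralogs was not tested, nor was binding of 1 probe to the RNA of both.

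Among the constitutive beta subunits psmb4, a structural subunit, was higher in females by 0.51 ± 0.12 (SE, limma, adjusted p = 0.0024), with its 3 probes between 0.42 and 0.58. The caspase-like catalytic subunit psmb6 was higher by 0.28 ± 0.07 (SE, limma, adjusted p = 0.0047). The trypsin-like subunit psmb7 had a difference of 0.19 (limma, adjusted p = 0.084), and its 6 probes ran from -0.07 to 0.49. The chymotrypsin-like subunit psmb5 had a difference of 0.02, with a 95% interval from -0.18 to 0.22. In all 2 of the 7 constitutive beta genes were higher and 0 were lower, with 2 at an unadjusted p under 0.05. The share called was 28.6%, against 70.3% of all genes.

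The immune beta genes went the other way. The level of psmb9a, which can replace psmb6 in the core, was -0.91, -0.03 and -0.82 in the female pools on 0% maize and 0.07, -0.66 and -0.50 in those on 25% maize. In males it was 0.61, 0.62 and 0.27 on 0% maize and 0.37, 0.31 and 0.66 on 25% maize. Every female pool lay below every male pool, which 16.4% of all genes also showed. The gene was 1.89-fold lower in females, by 0.91 ± 0.16 (SE, limma, adjusted p = 0.0004). For psmb12, a related beta gene of fish, the levels were -0.82, -0.18, -0.55, 0.18, -0.64 and -0.06 in females, in the order of the groups above, and between 0.13 and 0.53 in males. The females overlapped the males only through replicate 2 on 25% maize, and the gene was lower by 0.69 ± 0.15 (SE, limma, adjusted p = 0.0016). Its 2 probes gave -0.73 and -0.65. The third gene, psmb10, which can replace psmb7, had a difference of -0.23 (limma, adjusted p = 0.154).

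All 11 leukocyte genes had a negative sex difference, with a median of -0.35, and 1 passed the test. That gene was b2m, the light chain of the class I molecules that present peptides made by the proteasome. It is not confined to leukocytes, and no other gene of the list passed. The level of b2m was lower in females by 1.04 ± 0.19 (SE, limma, adjusted p = 0.00061). The mean of the 11 genes lay between -0.59 and 0.57 in the female pools and between 0.01 and 0.38 in the male pools. The female pools with the highest psmb9a were replicate 2 on each diet. In replicate 2 on 0% maize the mean of the 11 leukocyte genes was 0.57, against -0.47 and -0.59 in the other pools of its group, and the ovary mean was 1.04, against 2.27 and 2.18. Replicate 2 on 25% maize did not stand apart in this way, with a leukocyte mean of -0.22, against -0.29 and -0.20, and an ovary mean of 1.27, against 1.64 and 1.20. Without the first of these pools the sex difference of psmb9a was -1.05, and without the second it was -1.01. Both are wider than with all pools, which follows from leaving out a female pool high in psmb9a. The part of leukocytes in the levels of the immune subunits was not tested.

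**Figure D2:**
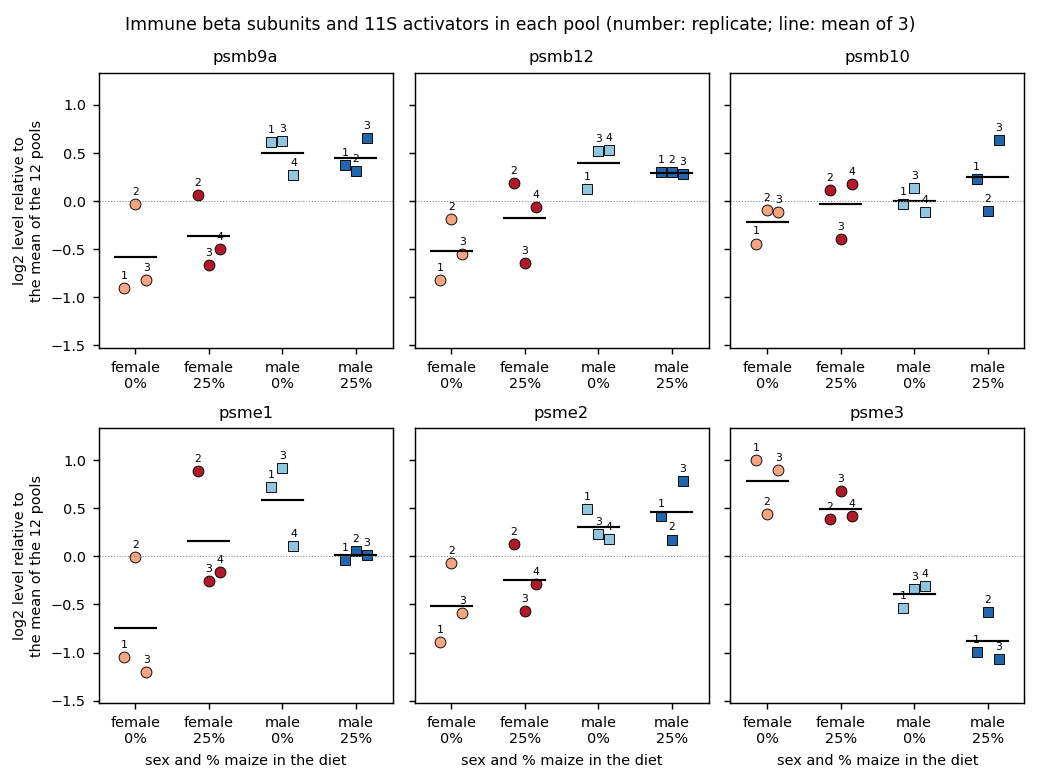
Levels of the 3 immune or related beta genes (top) and of the 3 genes of 11S activators (bottom) in each pool, as log2 relative to the mean of the 12 pools, by sex and diet, with the replicate number at each point and a line at the mean of 3 pools. All female pools of psmb9a (-0.91 to 0.07) lie below all male pools (0.27 to 0.66), while all female pools of psme3 (0.39 to 1.00) lie above all male pools (-1.07 to -0.31).

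The 11S activators divided by type. The level of psme2, which encodes the beta chain of the interferon-inducible activator, was -0.89, -0.07 and -0.59 in females on 0% maize and 0.13, -0.57 and -0.28 on 25% maize. The male pools had 0.49, 0.24 and 0.18 on 0% maize and 0.42, 0.17 and 0.78 on 25% maize. Every female pool lay below every male pool, as in 16.4% of all genes. The gene was 1.65-fold lower in females, by 0.72 ± 0.15 (SE, limma, adjusted p = 0.0014).

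Its partner psme1, the alpha chain, varied more between pools. The level was -1.04, -0.00 and -1.20 in females on 0% maize and 0.89, -0.25 and -0.16 on 25% maize. The male pools had 0.72, 0.92 and 0.11 on 0% maize and -0.04, 0.05 and 0.02 on 25% maize. The sexes overlapped, with the second highest level of all in a female pool. The pool means were -0.75 in females and 0.58 in males on 0% maize, and 0.16 and 0.01 on 25% maize. Of the 2 probes of the gene, 0 passed the test for sex. The gene was lower in females by 0.55 ± 0.23 (SE, limma, adjusted p = 0.0499), and this call held in 2 of the 12 fits that left out 1 pool, namely those without female replicate 2 of either diet. In the other 10 fits the adjusted p reached 0.2 (limma, without female 0% maize replicate 3).

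The nuclear activator psme3 was 2.40-fold higher in females. Its level was 1.00, 0.44 and 0.90 on 0% maize and 0.39, 0.68 and 0.42 on 25% maize in females, and -0.54, -0.34, -0.31, -1.0, -0.58 and -1.07 in the male pools in the same order. Females lay above males throughout, as in 22.2% of all genes, and the difference was 1.26 ± 0.12 (SE, limma, adjusted p = 5.3e-06). Both probes of the gene showed it, at 1.15 and 1.38. The difference of psme3ip1 was 0.09 (limma, adjusted p = 0.279).

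In the 19S base 3 of 7 ATPase genes were higher in females and 0 were lower, with 3 at an unadjusted p under 0.05. The share called was 42.9%, against 70.3% of all genes. The ATPase psmc4 was higher by 0.78 ± 0.14 (SE, limma, adjusted p = 0.00045), psmc6 by 0.38 (adjusted p = 0.011) and psmc3 by 0.28 (adjusted p = 0.006), both from limma. The level of psmc4 was 0.45, -0.03, 0.64, 0.64, 0.36 and 0.19 in the female pools and -0.54, -0.27, -0.56, -0.69, 0.06 and -0.25 in the male pools. The sexes overlapped only through female replicate 2 on 0% maize and male replicate 2 on 25% maize. The ATPases psmc2 and psmc5 had differences of -0.01 and -0.01, within 95% intervals of -0.19 to 0.16 and -0.17 to 0.16.

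Of the 14 psmd genes, 6 were higher in females and 1 was lower, which is 50% against 70.3% of all genes. The chaperone psmd10, also called gankyrin in mammals, was 1.91-fold higher, by 0.94 ± 0.12 (SE, limma, adjusted p = 3.7e-05). Its level was 0.73, 0.14, 0.72, 0.39, 0.63 and 0.16 in the female pools and -0.52, -0.49, -0.59, -0.56, -0.23 and -0.40 in the male pools. Females lay above males throughout, as in 22.2% of all genes. The other chaperone, psmd9, was higher by 0.45 ± 0.09 (SE, limma, adjusted p = 0.0013). The lid subunit psmd14, the deubiquitinase that removes chains from the substrate, was higher by 0.71 ± 0.11 (SE, limma, adjusted p = 0.00022). Another lid subunit, psmd12, was higher by 0.64 ± 0.14 (SE, limma, adjusted p = 0.0018). The lid subunit psmd6 (0.42, limma, adjusted p = 0.025) and the scaffold psmd2 (0.23, limma, adjusted p = 0.032) had probes that disagreed, at 0.86 and -0.03 for psmd6 and 0.47 and -0.02 for psmd2. The call of psmd2 was lost with the replicate block (0.20, limma, adjusted p = 0.084). The ubiquitin receptor psmd4b was lower by 0.25 ± 0.07 (SE, limma, adjusted p = 0.0056), while its paralog psmd4a had a difference of 0.16 (limma, adjusted p = 0.094). The 7 psmd genes that did not pass lay between -0.10 and 0.18.

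**Figure D3:**
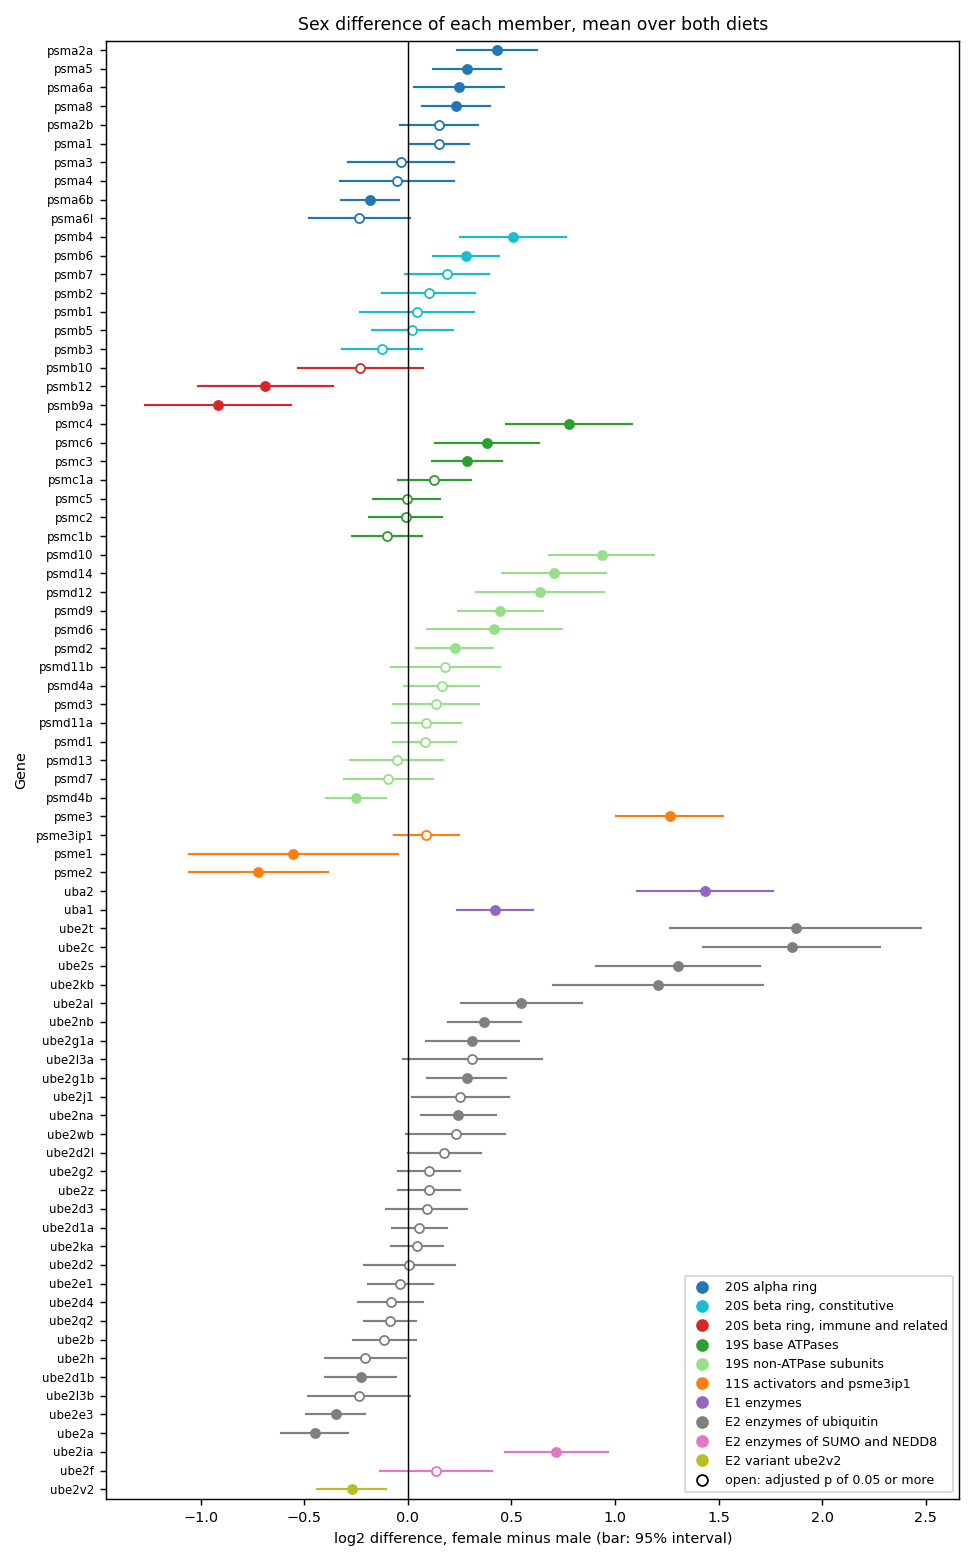
Sex difference of each of the 78 members (rows, coloured by part of the system) as the log2 difference of females minus males, mean over both diets, with bars for the 95% interval; open points did not pass an adjusted p of 0.05. Most proteasome subunits lie within 0.5 of zero, the immune genes psmb9a and psmb12 lie to the left, and ube2t and ube2c lie farthest to the right, at 1.87 and 1.85.

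Both measured E1 genes were higher in females, as were 38.3% of all genes. The main ubiquitin-activating enzyme, uba1, was higher by 0.42 ± 0.08 (SE, limma, adjusted p = 0.00092), a call lost without the dye term (limma, adjusted p = 0.062). The SUMO-activating subunit uba2 was 2.70-fold higher, by 1.43 ± 0.15 (SE, limma, adjusted p = 1.2e-05), with its 3 probes between 1.03 and 1.82. Its level was 0.97, 0.11, 0.95, 0.76, 0.97 and 0.52 in the female pools and -0.46, -0.62, -0.62, -0.86, -0.68 and -1.05 in the male pools. The SUMO-conjugating enzyme ube2ia was higher by 0.72 ± 0.11 (SE, limma, adjusted p = 0.0002). In ube2ia, as in uba2, every female pool lay above every male pool, which 22.2% of all genes also showed. The NEDD8 enzyme ube2f had a difference of 0.13 (limma, adjusted p = 0.339).

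Of the 28 ubiquitin E2 genes, 9 were higher and 3 were lower in females, which is 42.9% against 70.3% of all genes. The largest differences were those of ube2t, ube2c, ube2s and ube2kb. The level of ube2c, which in human cells works with the anaphase-promoting complex, was 1.37, 0.44 and 1.59 in females on 0% maize and 0.38, 1.09 and 0.67 on 25% maize. The levels in males were -1.43, -0.96 and -1.01 on 0% maize and -1.07, -0.66 and -0.42 on 25% maize. It was 3.61-fold higher in females, by 1.85 ± 0.19 (SE, limma, adjusted p = 1.3e-05).

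Its partner ube2s, which lengthens the chains that ube2c starts, was 2.47-fold higher, by 1.30 ± 0.18 (SE, limma, adjusted p = 8.2e-05). The level of ube2t, the E2 of the Fanconi anaemia repair pathway in human cells, was 1.55, -0.15, 1.41, 0.75, 1.40 and 0.63 in the female pools and -1.22, -0.67, -0.84, -1.48, -0.87 and -0.50 in the male pools. The gene was 3.66-fold higher in females, by 1.87 ± 0.27 (SE, limma, adjusted p = 0.00012). In ube2c, ube2s, ube2t and uba2 every female pool lay above every male pool, as in 22.2% of all genes. On 0% maize the female pool nearest to the males was replicate 2, the pool with the lowest ovary mean of the 6. In ube2c replicate 2 on 25% maize was lower still. Without replicate 2 on 0% maize the sex difference was 2.03 for ube2c, 2.15 for ube2t, 1.50 for ube2s and 1.59 for uba2. Such a rise follows from leaving out a low female pool, whatever its ovary mean. The part of ovarian RNA in these differences was not tested.

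**Figure D4:**
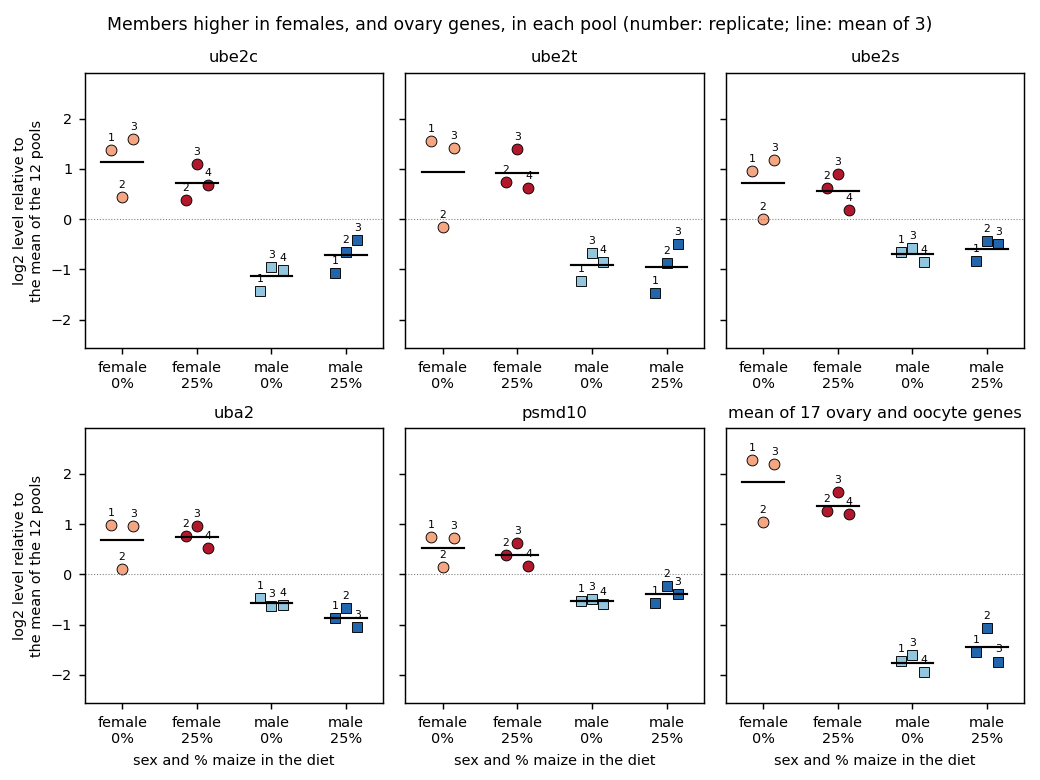
Levels of ube2c, ube2t, ube2s, uba2 and psmd10, and the mean of 17 ovary and oocyte genes, in each pool, as log2 relative to the mean of the 12 pools, by sex and diet, with the replicate number at each point and a line at the mean of 3 pools. In all 6 panels the female pools lie above the male pools, and within the female 0% maize group replicate 2 is the lowest.

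Among the other E2 genes ube2kb, whose mammalian counterpart builds the chains that mark proteins for the proteasome, was 2.31-fold higher in females, by 1.21 ± 0.23 (SE, limma, adjusted p = 0.00072). Its level was 0.74, -0.47, 0.51, 0.74, 1.1 and 1.23 in the female pools and -0.75, -0.25, 0.16, -0.29, -1.19 and -1.52 in the male pools, where female replicate 2 on 0% maize overlapped the males. The paralog ube2ka had a difference of 0.04, with a 95% interval from -0.08 to 0.17. Both ube2n genes, which build signalling chains, were higher, ube2nb by 0.37 (limma, adjusted p = 0.0017) and ube2na by 0.24 (limma, adjusted p = 0.021), the latter lost with the replicate block (0.19, limma, adjusted p = 0.065). Their cofactor ube2v2 was lower by 0.27 ± 0.08 (SE, limma, adjusted p = 0.0074). Both ube2g1 genes were higher, by 0.31 for ube2g1a (limma, adjusted p = 0.017) and 0.28 for ube2g1b (limma, adjusted p = 0.012).

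The RAD6 type E2 ube2a, which ubiquitinates chromatin and repair proteins, was lower in females by 0.45 ± 0.07 (SE, limma, adjusted p = 0.00023), while the related ube2al was higher by 0.55 ± 0.13 (SE, limma, adjusted p = 0.0033). The call of ube2a was lost without the dye term (limma, adjusted p = 0.125). Its sexes lay apart on 0% maize, at -0.51 to -0.27 in females and 0.35 to 0.46 in males. On 25% maize they overlapped, at -0.09 to -0.00 in females and -0.08 to 0.26 in males. The paralog ube2b had a difference of -0.11 (limma, adjusted p = 0.158) as a mean of 3 probes that each passed the test alone and did not point 1 way, at 0.38, -0.26 and -0.46. In ube2e3 all 3 probes gave between -0.36 and -0.33, and the gene was lower by 0.35 ± 0.07 (SE, limma, adjusted p = 0.00063). Every female pool of ube2e3 lay below every male pool, as in 16.4% of all genes. The broad-acting ube2d family had 6 measured genes, of which only ube2d1b passed the test, lower by 0.23 (limma, adjusted p = 0.022). The 16 ubiquitin E2 genes that did not pass lay between -0.24 for ube2l3b and 0.31 for ube2l3a.

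Genes that work beside the members, from lists of ubiquitin pathway genes, were also described. Of these 100 genes 46 were higher and 11 were lower in females, with a median of 0.16, against 38.3% higher and 32% lower over all genes, so that fewer of them differed than the 70.3% of all genes. Among assembly factors akirin2, which carries proteasomes into the nucleus in human cells, was higher by 0.86 ± 0.09 (SE, limma, adjusted p = 8.2e-06), and 3 of 5 were higher. Of 7 other subunits and associated enzymes 3 were higher, including the deubiquitinase usp14 (0.82) and the ubiquitin receptor adrm1 (0.68), and ubqln4 was lower by 0.33. Of 10 ubiquitin genes and small modifiers 6 were higher and 1 was lower, and of 6 partners of E1 enzymes 4 were higher. The SUMO modifier sumo3b was higher by 2.22 ± 0.24 (SE, limma, adjusted p = 1.5e-05), and sae1, which forms the SUMO E1 with uba2, was higher by 1.00 ± 0.12 (SE, limma, adjusted p = 3.5e-05).

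Of 5 regulators of proteasome transcription 1 was higher and 3 were lower in females, with keap1a, the sensor that holds back Nrf2, lower by 1.11 and nfe2l2a, which encodes Nrf2, lower by 0.62. The gene keap1a is also in the list of cullin ligases and is counted in both lists, but once among the 100 genes. Over all genes 38.3% were higher and 32% were lower. Of 18 cullin ligase genes 10 were higher and 2 were lower, of 18 other ligase genes 6 and 3, of 17 deubiquitinases 7 and 1, and of 15 genes of p97 and endoplasmic reticulum degradation 6 and 1. Among the last, erlec1 (1.33), which recognises misfolded glycoproteins, and herpud1 (1.19) had the smallest p-values.

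Few members differed between the diets. With both sexes averaged, 1 of 78 members passed the test (1.28%), higher on 25% maize, against 4.94% of all genes, of which 2.14% were higher and 2.8% lower. At an unadjusted p under 0.05 there were 5 of 78 members higher and 6 lower, against 514 and 636 of all 6684 genes. The member that passed was the 19S ATPase psmc1b. Its level was -0.29, -0.38 and -0.24 in females on 0% maize and 0.31, 0.06 and 0.24 on 25% maize. In males it was -0.16, 0.07 and 0.11 on 0% maize and -0.04, 0.11 and 0.22 on 25% maize. The diets did not overlap in females and overlapped in males.

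The diet effect of psmc1b was 0.30 ± 0.08 (SE, limma, adjusted p = 0.045). In each sex alone it did not pass, at 0.48 ± 0.13 in females (SE, limma, adjusted p = 0.091) and 0.12 ± 0.13 in males (SE, limma, adjusted p = 0.848). The call was lost in each of the 12 fits that left out 1 pool, with effects of 0.24 to 0.34 and adjusted p from 0.058 to 0.201 (limma). With the replicate number as a block the effect was 0.28 (limma, adjusted p = 0.119). Its paralog psmc1a had a diet effect of 0.14 ± 0.08 (SE, limma, adjusted p = 0.42).

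By part of the system the diet effects were small. The median was 0.11 for the 7 ATPases, all 7 with a positive value, 0.17 for the 7 constitutive beta genes (6 positive), 0.07 for the 10 alpha genes (8 positive) and 0.07 for the 14 psmd genes (9 positive). It was -0.05 for the 28 ubiquitin E2 genes, of which 8 were positive, and -0.01 for all genes. Of these groups only psmc1b passed the test. The median member had a 95% interval, not adjusted for the number of genes, of 0.20 to either side of its effect, and larger effects than that, such as those that follow, did not pass the adjusted test. All members were measured in the same pools, so their common sign is given as a description.

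The members next to the threshold were psmd3, a lid subunit, at 0.33 ± 0.09 (SE, limma, adjusted p = 0.069), uba1 at -0.28 ± 0.08 (SE, limma, adjusted p = 0.072), psme3 at -0.39 ± 0.11 (SE, limma, adjusted p = 0.083), psmb6 at 0.23 ± 0.07 (SE, limma, adjusted p = 0.089) and ube2g1b at -0.28 ± 0.08 (SE, limma, adjusted p = 0.093). The level of psmd3 was -0.20, -0.13 and -0.09 in females on 0% maize and 0.50, -0.03 and 0.31 on 25% maize, which do not overlap. The levels in males were -0.30, -0.19 and -0.08 on 0% maize and -0.11, 0.07 and 0.22 on 25% maize, which do. The level of uba1 was 0.32, 0.28 and 0.32 in females on 0% maize and 0.09, 0.14 and 0.15 on 25% maize. In males it was -0.24, 0.15 and 0.02 on 0% maize and -0.51, -0.16 and -0.55 on 25% maize, where the diets overlapped. In the ube2d family the effects ran from -0.23 for ube2d2 to 0.00 for ube2d1a, with a median of -0.17, and 0 of 6 passed. Of the 6 genes, 2 were at an unadjusted p under 0.05, as were 1150 of all 6684 genes.

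**Figure D5:**
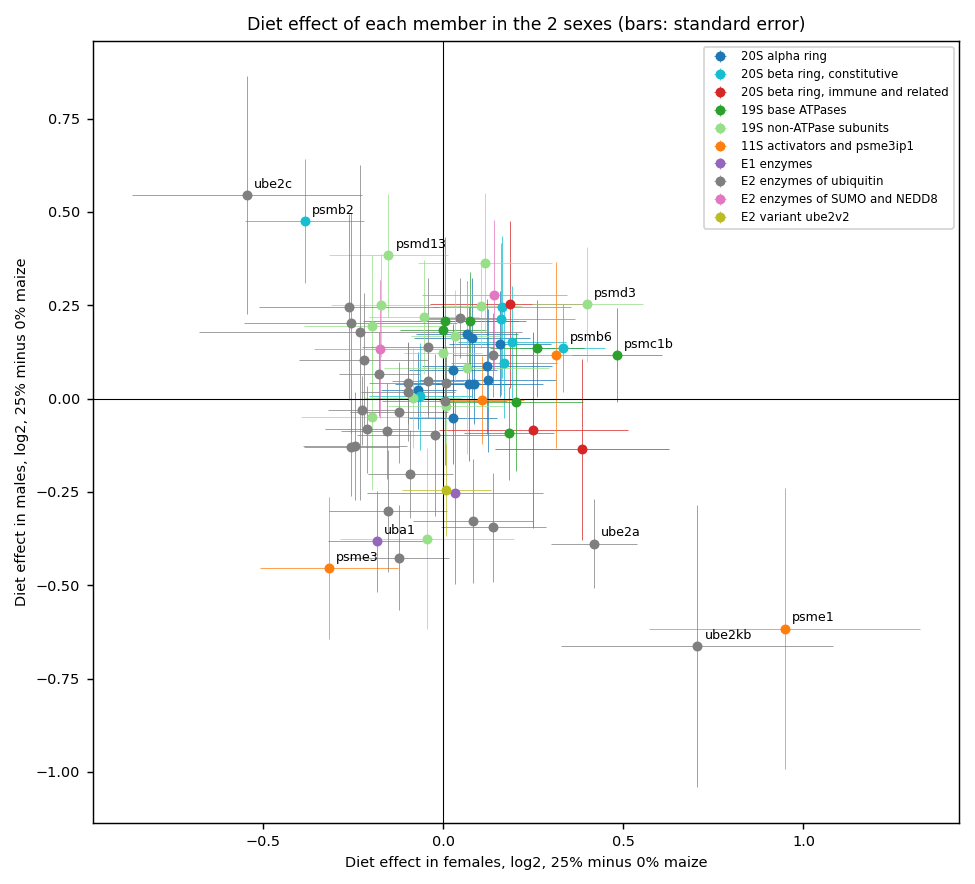
Diet effect of each of the 78 members, as log2 of 25% minus 0% maize, in females (horizontal axis) and in males (vertical axis), coloured by part of the system, with bars for the standard error. Most members lie within 0.3 of zero on both axes, and psme1 (0.95 in females, -0.62 in males), ube2kb, ube2c and psmb2 lie farther out with opposite signs in the sexes.

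Ovary, intestinal, exocrine pancreas and secreted hepatocyte genes also had median diet effects of opposite sign in the sexes. In either sex 0 of them passed the test. The median was -0.53 in females and 0.38 in males for the ovary genes, 1.01 and -0.66 for the intestinal genes, and 0.40 and -0.27 for the exocrine pancreas genes. For the hepatocyte genes it was 0.19 and -0.17. The effect of ube2c was -0.54 in females and 0.54 in males. A member with opposite signs in the sexes shares them with the median of some of these lists whichever way it goes. The signs of ube2c were those of the ovary median and opposite to those of the other lists named here. The part of these tissues in the diet effects was not tested.

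In females alone 0 members passed the test against 1.32% of all genes (0.958% higher and 0.359% lower). At an unadjusted p under 0.05, 5 of 78 members were higher and 2 lower, against 572 and 446 of all 6684 genes. In males alone 0 members passed against 0.0299% of all genes (0.015% in each direction). At an unadjusted p under 0.05, 3 of 78 members were higher and 5 lower, against 262 and 463 of all 6684 genes. The largest effects in females were 0.95 ± 0.38 for psme1 (SE, limma, adjusted p = 0.258) and 0.71 ± 0.38 for ube2kb (SE, limma, adjusted p = 0.423), both of which varied widely between pools. The 2 probes of psme1 gave 0.40 and 1.50 in females and -1.41 and 0.17 in males, so they did not share a direction in males. The effects of the same genes in males were -0.62 ± 0.38 and -0.66 ± 0.38 (SE, limma, adjusted p = 0.634 and 0.599). For the catalytic beta genes the effects in females were 0.17 for psmb5, 0.33 for psmb6 and 0.19 for psmb7. Those of the immune or related genes were 0.25 for psmb9a, 0.39 for psmb12 and 0.19 for psmb10. None of these effects passed the test, and no immune counterpart of psmb5 was among the measured members.

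In females the pools on 25% maize all lay above those on 0% maize for 7 members (psmc1b, psmc3, psmd3, psma3, psmb6, psmb7 and ube2a), against 11.8% of all genes, and all below for 6 (uba1, ube2d2l, ube2d3, ube2e1, ube2g2 and ube2ka), against 9.95%. In males they lay above for 6 members (psmd1, psmd11a, psmd13, psmb2, ube2f and ube2e3), against 7.9%, and below for 8 (psme1, psme3, psmd6, uba2, ube2a, ube2al, ube2g1b and ube2h), against 10.6%. Of these members ube2a was the one in a set of both sexes, with opposite directions.

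The difference of the diet effect between the sexes passed the test for 0 members and for 0% of all genes. At an unadjusted p under 0.05, 3 of 78 members were higher and 1 lower, against 402 and 196 of all 6684 genes. The smallest adjusted p was that of ube2a, whose effect was 0.42 ± 0.12 in females and -0.39 ± 0.12 in males. In psmb2, a constitutive beta subunit, the effect was -0.38 ± 0.17 in females and 0.48 ± 0.17 in males, and the difference was -0.86 ± 0.27 (SE, limma, adjusted p = 0.316). Its 2 probes disagreed, at -1.78 and 0.06 for this difference, so the opposite directions rested on 1 probe. Of the 100 other pathway genes 0 passed for diet with both sexes averaged or in males, and 1 passed in females. That gene was the deubiquitinase usp5, which recycles free ubiquitin chains and was lower on 25% maize by 1.35 ± 0.19 (SE, limma, adjusted p = 0.017). The call held in 5 of 12 fits that left out 1 pool, with effects from -1.51 to -1.20 and adjusted p up to 0.997 (limma, without female 25% maize replicate 4). With the replicate block the adjusted p was 0.102, and without the dye term it was 0.576 (limma). The call was lost without replicates 1 and 3 of the female 0% maize group, 2 and 4 of female 25% maize, 1 of male 0% maize, or 1 and 3 of male 25% maize. In males the effect of usp5 was 0.55 ± 0.19 (SE, limma, adjusted p = 0.297), and the difference between the sexes did not pass either, at -1.90 ± 0.30 (SE, limma, adjusted p = 0.123).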

How the data were processed

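Livers were profiled on two-colour Agilent zebrafish arrays, scanned and quantified with GenePix Pro. The authors deposited 1 log ratio per probe and array, processed with limma (no version is given in the sources used here) and read here as log2 of Cy5 over Cy3. The log base and direction are not stated, and all 470 vitellogenin values on the 10 arrays of both sexes had the sign this direction requires. No source used here gives the background correction or the normalization.

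Symbols were updated through RefSeq's GRCz12tu gene table, and 32 of 132 member probes changed symbol. Gene values (means of probes) entered a linear model (limma 3.58.1, R 4.3.3) with terms for sex and diet group and for dye, after whitening for pools shared between arrays (variance ratio 2.91, by restricted maximum likelihood over probes, and 0 for tanks). Contrasts were two-sided, with Benjamini-Hochberg adjustment over 6684 genes. The fit was tested on simulated data. Alternatives changed the shared-pool and tank variance, the dye term, the replicate block, the centring, scaling and weights of arrays, the summary of probes, the threshold and the moderation of variances, and left out each pool in turn. The 12 arrays limit the precision, and p-values measure the spread between pools.

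The members and lists were chosen with earlier results of these data known. Named genes were the members past a threshold (up to 12 each way per contrast), the 3 with the smallest p of each part for diet and for sex, catalytic pairs, paralogs and genes with discordant probes.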

Additional observations from a re-analysis of the deposited data

Results flagged for a closer look

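The diet effect of ube2a ran in opposite directions in the sexes in every pool. In females its level was -0.46, -0.27 and -0.51 on 0% maize and -0.00, -0.09 and -0.00 on 25% maize, and in males it was 0.39, 0.35 and 0.46 on 0% maize and -0.04, 0.26 and -0.08 on 25% maize. The difference of the effects between the sexes was 0.81 ± 0.19 (SE, limma, adjusted p = 0.234) and did not pass the test. The same pattern of pools was shown by 1.28% of the members and by 2.39% of all genes. The gene has 1 probe.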

How the results depend on the processing

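The sex difference kept its count of members within 1.5 times of 38 under all alternatives, from 27 at an adjusted p under 0.01 and 28 without the dye term to 52 with array weights, and from 29 (without male 25% maize replicate 1) to 45 (without female 0% maize replicate 2) with 1 pool left out. With the replicate number as a block it was 36. The correlations of deviations of same-numbered pools were 0.21 and 0.27 in females and -0.12 and 0.18 in males. With 3 pools per group these few values cannot tell whether the replicate numbers pair the pools. The fit reported has no replicate block.

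The diet effect independent of sex, with 1 member, gave 11 with arrays taken as independent, 9 with array weights, 6 at an adjusted p under 0.10, and 0 with a variance ratio of 10, pool levels, a tank variance ratio of 1, the replicate block, no dye term, arrays scaled to one spread, an adjusted p under 0.01, or 1 probe required to pass; with 1 pool left out it was 0 to 2. The count in females, 0 in the fit reported, was 1 with pool levels and at an adjusted p under 0.10, 7 with scaled arrays, 14 with array weights, and 0 to 1 with 1 pool left out. In males it was 26 with scaled arrays and 2 with array weights. For the difference between the sexes it was 20 with scaled arrays and 2 with array weights. The cause was not tested. The fit of array weights did not converge. For these alternatives, and for those of the sex difference, the share of all genes called in the same setting is not given here. The counts are therefore not read as particular to the members.

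Small effects that did not pass the test changed sign. The sex difference of psmb5 was -0.0092 with the replicate block and -0.0441 to 0.0728 with 1 pool left out. The diet effect of ube2a was -0.0170 with the block, -0.0043 with scaled arrays and -0.0364 to 0.0475 with 1 pool left out. That of ube2d1a was -0.0298 with array weights and -0.0380 to 0.0255 with 1 pool left out. That of ube2ia was 0.0078 with the block, 0.0493 with scaled arrays and -0.121 to 0.0346 with 1 pool left out. That of ube2l3a was 0.0242 with the tank ratio, 0.0550 with the block, 0.0013 with median-centred arrays and -0.116 to 0.134 with 1 pool left out. That of ube2l3b was -0.0108 with the block and -0.0282 to 0.110 with 1 pool left out, and that of psmb9a was -0.0058 to 0.226 with 1 pool left out.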
